A study of Mus musculus with 16 samples.

Results

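The extracellular matrix genes described here are a list of 43 genes that encode collagens, laminins, other structural proteins of the matrix and the enzymes that fold and crosslink collagen. They were listed by symbol and function rather than by a threshold on measured values, but with earlier results of these data known. Of the 43, 41 were matched to a probe through the RefSeq accession that the array names as its target, and all 41 passed the intensity minimum (log2 of 6 on 1 array or more) that left 37149 genes to test. Of these 37149, 20122 carry a gene symbol and the others keep the target name of the array. The shares of all genes called below are over the 37149 and were not restricted to genes with a symbol. Col6a3 and Col12a1 found no matching accession and have no value here. The list was divided into 4 classes, which are fibrillar and interstitial collagens (7 of 9 listed genes measured), basement membrane genes (13 of 13), fibronectin, elastic fiber, proteoglycan and matricellular genes (14 of 14), and genes for crosslinking and collagen processing (7 of 7).

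Fibrillar collagens are triple helices that assemble outside the cell into the load-bearing fibers of connective tissue, and they are made mainly by fibroblasts and other mesenchymal cells. Basement membranes are thin sheets under endothelia and epithelia, built from a laminin network and a type IV collagen network that nidogens and perlecan tie together. Before collagen leaves the cell its prolines and lysines are hydroxylated and its helix is held by the chaperone HSP47, and after secretion the lysyl oxidases crosslink it. Endothelial cells rest on such a basement membrane, whereas blood cells that leave the hemogenic endothelium lose their contact with it.

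The arrays measured RNA of mouse ES cells that carried either an intact Sp1 gene (Sp1+/+, labelled E14) or, in both copies, a mutant allele whose truncated protein lacks the DNA-binding domain (Sp1-/-, 1 ES cell line). Sp1 is a ubiquitous transcription factor that binds GC-rich DNA, and the study asked how its loss alters gene expression as ES cells turn into blood. The 4 populations of each genotype were Flk1+ cells from embryoid bodies, and then, from blast cultures of those cells, the early hemogenic endothelium HE1 (KIT+ CD41- Tie2+), the later hemogenic endothelium HE2 (KIT+ CD41+ Tie2+) and progenitors (KIT+ CD41+ Tie2-). Each of the 8 groups was measured on 2 one-color Agilent arrays. The floating and the adherent cells of the blast culture were combined before the sort, and both genotypes had been kept as ES cells on mouse embryonic fibroblasts and were then passaged without these feeder cells before differentiation. The strain label of all samples names C57BL/6, while the Sp1+/+ samples are labelled E14, and which of these labels is right was not settled.

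Between 67.0% and 77.1% of the spots of an array were well above background, and replicate arrays correlated across probes at 0.990 to 0.998. The probe for Sp1, the mutated gene, read 12.14 to 12.56 on the log2 scale on the 8 Sp1+/+ arrays and 9.03 to 10.29 on the 8 Sp1-/- arrays, so that the groups did not overlap. Of the surface proteins used in the sort, Tek (Tie2) read 11.65 to 12.50 in HE1 and 7.62 to 9.62 in progenitors, and Itga2b (CD41) read 10.60 to 11.43 in HE1 and 11.95 to 12.68 in HE2. All 8 Sp1+/+ arrays lie on 1 slide and all 8 Sp1-/- arrays on the other, so that an effect of the slide and one of the genotype cannot be told apart. Comparisons of populations within a genotype lie within 1 slide. The deposited record calls the replicates independent biological ones but a legend of the study speaks of technical ones, so the p-values measure only the spread between these arrays. The values are log2 intensities that the authors normalized, and their offset compresses the folds of dim genes. A gene is called when its unadjusted p is 0.01 or less and it differs by at least 2-fold (1 on the log2 scale). The adjusted p is that of limma after the Benjamini-Hochberg procedure across the 37149 genes. Counts at an unadjusted p under 0.05 are given for the matrix genes alone, and the share of all genes at that threshold was not counted.

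Since Sp1 is known to bind the GC box, whose core is GGGCGG, the 300 bases around the transcription start (250 before and 50 after) were searched for this core on either strand in the RefSeq promoter table of GRCm38.p6. Of the 43 genes, 28 have a window there. The core was found in 20 of these 28 genes (71.4%) and in 38.2% of all genes with a window. Among genes with a single window it was found in 15 of 22 matrix genes (68.2%) and in 35.2% of all such genes. The matrix windows had a median GC content of 60.7%, against 52.7% over all windows. The core was found in 13 of 17 matrix genes (76.5%) that were called lower in Sp1-/- progenitors (below) and in 7 of 10 (70.0%) that were measured and not called there. The following stretches lie directly before the start of a gene for a collagen chain, the collagen chaperone, a proline hydroxylase and a collagen-binding glycoprotein, all lower in Sp1-/- progenitors. They are written 5′ to 3′ on the strand of the gene, and capitals mark the core on either strand. Col1a2 holds it 205 and 188 bases before its start, Serpinh1 37 bases before, P4ha2 126 and 18 bases before, and the Sparc stretch, shown for contrast, holds no match.
Col1a2, chr6:4505368-4505617, + strand: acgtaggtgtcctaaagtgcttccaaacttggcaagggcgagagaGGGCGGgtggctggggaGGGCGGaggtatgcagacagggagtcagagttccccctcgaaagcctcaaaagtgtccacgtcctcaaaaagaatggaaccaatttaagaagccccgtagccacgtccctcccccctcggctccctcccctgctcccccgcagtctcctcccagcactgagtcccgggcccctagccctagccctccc
Serpinh1, chr7:99353240-99353489, - strand: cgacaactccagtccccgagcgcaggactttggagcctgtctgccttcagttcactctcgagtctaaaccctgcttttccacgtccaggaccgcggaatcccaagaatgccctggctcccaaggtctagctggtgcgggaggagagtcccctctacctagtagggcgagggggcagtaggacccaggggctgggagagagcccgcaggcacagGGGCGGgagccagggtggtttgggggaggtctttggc
P4ha2, chr11:54100674-54100923, + strand: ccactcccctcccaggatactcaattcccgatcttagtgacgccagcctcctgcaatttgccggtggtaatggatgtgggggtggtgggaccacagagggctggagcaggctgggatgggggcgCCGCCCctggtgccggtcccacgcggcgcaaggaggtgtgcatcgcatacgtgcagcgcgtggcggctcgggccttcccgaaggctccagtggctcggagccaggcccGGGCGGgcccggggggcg
Sparc, chr11:55420081-55420330, - strand: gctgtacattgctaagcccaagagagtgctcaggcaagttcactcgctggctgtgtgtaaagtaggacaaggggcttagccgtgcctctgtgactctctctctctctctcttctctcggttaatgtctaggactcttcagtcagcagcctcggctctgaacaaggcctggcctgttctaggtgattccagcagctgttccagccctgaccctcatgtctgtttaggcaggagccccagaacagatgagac
The genes for the 2 main chains of type IV collagen, Col4a1 and Col4a2, start 21 bases apart in opposite directions, and their windows share 78 bases with 1 match, shown within this stretch of the + strand.
Col4a1 and Col4a2, chr8:11312800-11312829: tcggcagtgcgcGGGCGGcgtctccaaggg
A match is a run of letters and not a measured binding site. Because Col4a1 and Col4a2, Col3a1 and Col5a2, and Col6a1 and Col6a2 lie next to each other in the genome, these pairs are not independent members.

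In Sp1+/+ cells, 21 of 41 matrix genes were called higher in HE1 than in Flk1+ cells, 14 were called lower in HE2 than in HE1, and 7 lower in progenitors than in HE2. In the first of these steps 2 were called lower, where 4.66% of all genes tested were called higher and 3.89% lower. The median change of the 41 genes was 1.04 on the log2 scale, against -0.01 over all genes. The rise took in 9 of 13 basement membrane genes, 4 of 7 collagens, 6 of 14 genes of the fibronectin and elastic class and 2 of 7 crosslinking genes.

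**Figure D1:**
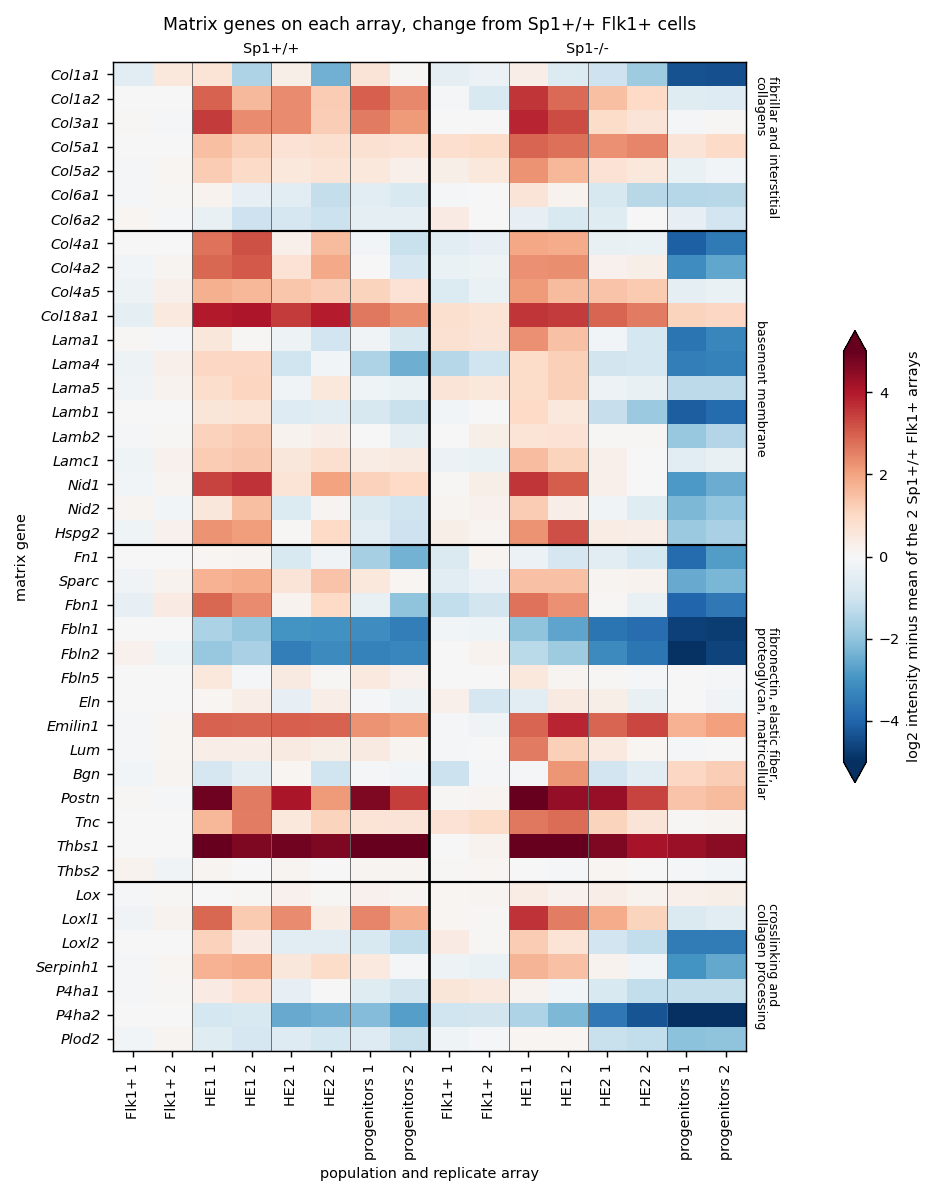
Each row is 1 of the 41 matrix genes and each column 1 of the 16 arrays, and the color gives the log2 intensity minus the mean of the gene's 2 arrays of Sp1+/+ Flk1+ cells (colors end at -5 and 5). Most rows are warm in HE1 of both genotypes, and the 2 Sp1-/- progenitor arrays hold the coldest columns.

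Thbs1, which encodes thrombospondin 1, a matricellular inhibitor of vessel growth, read 6.73 and 6.67 in Sp1+/+ Flk1+ cells and 12.04 and 11.36 in HE1, a change of 5.00. Col18a1, whose basement membrane collagen releases the fragment endostatin, read 11.48 and 12.44 in Flk1+ cells and 15.92 and 16.02 in HE1, a change of 4.01. Nid1, the nidogen that links laminin to type IV collagen, went from 10.71 and 10.96 to 14.21 and 14.43, a change of 3.48. In all 3 genes both HE1 arrays lay above both Flk1+ arrays. Postn (periostin, a matricellular protein) was well above background on no Flk1+ array of Sp1+/+ cells and read 10.86 and 8.58 in HE1. Col4a2 (2.97), Col4a1 (2.95), Col3a1 (2.94) and Emilin1 (2.93), the last a glycoprotein of elastic fibers, rose by similar log2 changes. Fbln2 fell by 1.77 and Fbln1 fell by 1.74, and both encode fibulins, secreted proteins that bind fibronectin and basement membranes. The third fibulin, Fbln5, was well above background on no Flk1+ array and 1 of 2 HE1 arrays, and it was not called. Fn1, the fibronectin gene, read 16.93 and 16.86 in Flk1+ cells and 16.99 and 17.04 in HE1, and it was not called.

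From HE1 to HE2 of Sp1+/+ cells, 14 of 41 matrix genes were called lower, against 2.23% of all genes. In the opposite direction 0 were called by limma, 0 of them at an unadjusted p under 0.05 by limma and 0 by the methods' t-test, where 1.08% of all genes were called higher. Basement membrane genes made up 7 of the 14, with Nid1 at -2.15 and Col4a1 at -2.02, and Fbn1, which encodes the fibrillin of elastic microfibrils, had -2.02. Of the 7 fibrillar and interstitial collagens 0 were called in this step, where their log2 changes ran from -1.16 to -0.26. From HE2 to progenitors of Sp1+/+ cells, 7 were called lower and 1 higher, against 0.729% and 1.01% of all genes. The 7 were Fbn1 (-1.79), Col4a2 (-1.73), Fn1 (-1.56), Col4a1 (-1.56), Lama4 (-1.40), Hspg2 (-1.30) and Col18a1 (-1.25), and the 1 that rose was Thbs1 (1.13). This count rested on single arrays, since it was 2 without replicate 2 of the Sp1+/+ HE2 arrays and also 2 without replicate 2 of the Sp1+/+ progenitor arrays. Over the whole course, progenitors against Flk1+ cells, 8 matrix genes were called higher (4.3% of all genes) and 6 lower (4.29%), and the median change was -0.115. Thbs1 (5.88), Col1a2 (2.69), Col18a1 (2.47) and Col3a1 (2.37) were among the higher ones, and so was Postn, at least 16.4-fold higher.

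In Sp1-/- cells the first step had much the same counts, and the later steps held more called genes. From Flk1+ cells to HE1, 22 of 41 were called higher and 2 lower, against 4.62% and 4.87% of all genes, with a median change of 1.63. From HE1 to HE2, 26 were called lower, against 3.52% of all genes, and 0 higher (0 at an unadjusted p under 0.05 by limma and 0 by the methods' t-test), against 2.08%. Nid1 (-3.19), Col3a1 (-2.75), Fbn1 (-2.65), Col4a1 (-2.25) and Lamb1 (-2.25) were among the 26. From HE2 to progenitors, 24 were called lower and 1 higher, against 2.67% and 2.33% of all genes, with a median change of -1.59. These 24 included 12 of 13 basement membrane genes, led by Col4a1 (-3.46) and Col4a2 (-3.11), and also Fbn1 (-3.62), Col1a1 (-2.96) and Serpinh1 (-2.79). The gene that rose was Bgn (1.86), which encodes the small proteoglycan biglycan. Against the Flk1+ cells, the Sp1-/- progenitors had 22 matrix genes called lower (6.59% of all genes) and 2 higher (5.71%), and the 2 were Thbs1 (4.30) and Emilin1 (2.04). Lower by the largest amounts were Fbln2 (-4.87), Fbln1 (-4.53), P4ha2 (-4.25), Lama1 (-4.15) and Col1a1 (-3.96).

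**Figure D2:**
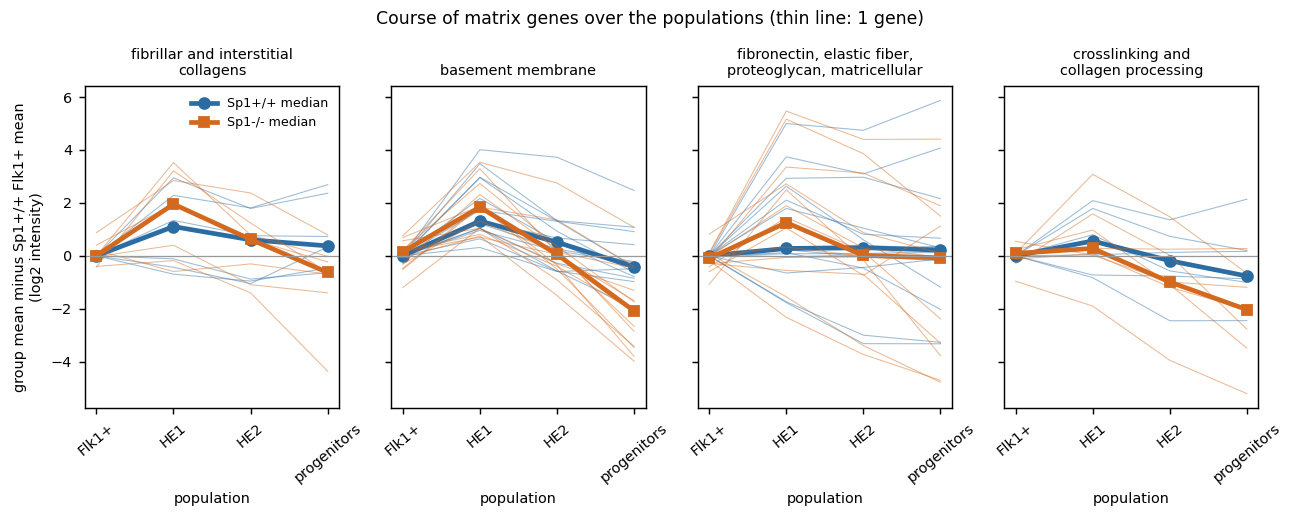
Thin lines give 1 gene each and thick lines the class median, as the group mean minus the gene's mean in Sp1+/+ Flk1+ cells (log2 intensity), for the 4 classes and the 2 genotypes. The basement membrane median stood at 1.32 in Sp1+/+ and 1.84 in Sp1-/- HE1, and at -0.415 in Sp1+/+ and -2.09 in Sp1-/- progenitors.

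Few of these genes were called between the genotypes in the first 3 populations, and most were called in the progenitors. In Flk1+ cells 1 of 41 matrix genes was called lower in Sp1-/- cells, against 0.867% of all genes, and 0 were called higher by limma (5 at an unadjusted p under 0.05, and 0 by the methods' t-test at the thresholds used), against 0.781%. The gene was Lama4, which encodes the laminin α4 chain of endothelial basement membranes. It read 10.77 and 11.28 in Sp1+/+ and 9.61 and 10.04 in Sp1-/- Flk1+ cells, a difference of -1.20 ± 0.317 (SE, n = 2 arrays per group) with an adjusted p of 0.0460. The groups did not overlap, but the call for Lama4 was lost without replicate 2 of the Sp1+/+ Flk1+ arrays or replicate 1 of the Sp1-/- ones, and in the latter case 0 matrix genes were called. Col5a1 (0.88 ± 0.129, adjusted p = 0.00272) was higher by less than 2-fold. The median over the 41 genes was -0.01, against 0.01 over all genes.

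In HE1, 3 matrix genes were called higher in Sp1-/- cells, against 0.974% of all genes, and 1 lower, against 1.13%. Col5a1 encodes a chain of type V collagen, which nucleates type I collagen fibrils. It read 11.68 and 11.35 in Sp1+/+ HE1 and 13.10 and 12.94 in Sp1-/- HE1, a difference of 1.5 ± 0.129 (2.84-fold, adjusted p = 7.06e-05). Lama1, the α1 chain of the laminin found in early embryonic basement membranes, read 11.57 and 11.06 in Sp1+/+ and 13.28 and 12.47 in Sp1-/- HE1 (1.56 ± 0.350, adjusted p = 0.0196). In both genes the Sp1-/- arrays lay above the Sp1+/+ arrays. Lum, which encodes the small proteoglycan lumican, was well above background on 1 of 2 Sp1+/+ arrays and read 6.33 and 6.35 there, and 8.61 and 7.21 in Sp1-/- HE1 (1.57, adjusted p = 0.0150). P4ha2, a catalytic subunit of the enzyme that hydroxylates collagen prolines, went the other way, from 11.65 and 11.76 to 10.97 and 10.29 (-1.07 ± 0.278, adjusted p = 0.0343). The median of the 41 genes was 0.11, and all 7 measured collagens of the first class had a positive difference, 1 of them called. Of the 4 calls that of Col5a1 held without any 1 array, Lama1 was lost without replicate 2 of the Sp1+/+ or replicate 1 of the Sp1-/- HE1 arrays, Lum without replicate 1 of the Sp1-/- arrays, and P4ha2 without either Sp1+/+ array or replicate 2 of the Sp1-/- arrays. Bgn differed by 1.71 in HE1 and was not called, since its Sp1-/- arrays read 10.32 and 12.59.

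In HE2, 1 matrix gene was called higher in Sp1-/- cells, against 0.77% of all genes, and 3 lower, against 1.18%. Col5a1 was again the higher one, with 10.91 and 10.96 in Sp1+/+ and 12.47 and 12.63 in Sp1-/- HE2, a difference of 1.61 ± 0.129 (3.06-fold, adjusted p = 3.58e-05). P4ha2 read 10.01 and 10.14 in Sp1+/+ and 8.95 and 8.21 in Sp1-/- HE2 (-1.5 ± 0.278, adjusted p = 0.00950). The groups of these 2 genes did not overlap. Col4a1 read 13.00 and 14.34 in Sp1+/+ and 12.36 and 12.42 in Sp1-/- HE2 (-1.28, adjusted p = 0.0934), and Nid1 read 11.50 and 12.83 in Sp1+/+ and 11.08 and 10.81 in Sp1-/- HE2 (-1.22, adjusted p = 0.0657). The calls for Col4a1 and Nid1 were lost without replicate 2 of the Sp1+/+ HE2 arrays and without either Sp1-/- HE2 array. The count of 4 in HE2 became 8 without replicate 1 of the Sp1+/+ HE2 arrays and 2 without replicate 2 of the Sp1-/- HE2 arrays. The median over the 41 genes was -0.30, against 0.015 over all genes, with 31 of 41 differences below 0. At an unadjusted p under 0.05, limma put 14 lower and 2 higher, but the share of all genes at that threshold was not counted.

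In progenitors, 26 of 41 matrix genes were called lower in Sp1-/- cells, against 2.6% of all genes. In the other direction 0 were called by limma, 0 at an unadjusted p under 0.05, while the methods' t-test at a p under 0.05 put 1 higher, and 1.5% of all genes were called higher. At an adjusted p of 0.05 the count was 24, against 2.55% of all genes, since Fn1 and Postn fell short. Among the 30496 genes that were well above background on both arrays of a group, 3.17% were called lower. The median difference of the matrix genes was -1.40, against 0.02 over all genes, and the median SE of a difference was 0.272. Of the 2 Sp1+/+ progenitor arrays, replicate 1 was the higher in 36 of the 41 genes. By class, the genes called lower were 11 of 13 basement membrane genes (median of the class -1.45), 5 of 7 crosslinking genes (-2.49), 7 of 14 of the fibronectin and elastic class (-0.925) and 3 of 7 fibrillar and interstitial collagens (-0.76). These are bulk measurements of sorted cells, in which fewer cells of a type and less RNA per cell cannot be told apart.

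**Figure D3:**
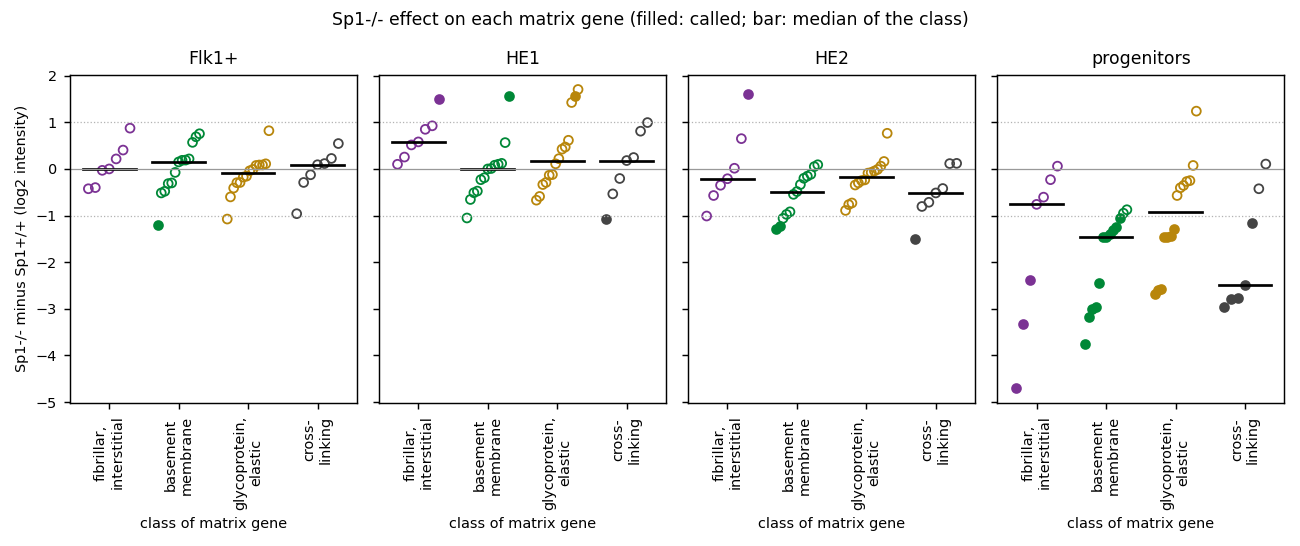
Each point is 1 matrix gene, placed at its log2 difference between Sp1-/- and Sp1+/+ cells (mean of 2 arrays each) in 1 of the 4 populations, filled where called, with a bar at the class median and dotted lines at -1 and 1. The Flk1+ panel holds 1 filled point, the HE1 and HE2 panels 4 each and the progenitor panel 26, all of the last below -1.

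Among the fibrillar and interstitial collagens, the genes for type I and type III collagen, the main fibers of connective tissue, were lower in Sp1-/- progenitors. Col1a1 read 12.14 and 11.55 in Sp1+/+ and 7.16 and 7.13 in Sp1-/- progenitors, a difference of -4.70 ± 0.836 (SE, n = 2 arrays per group), 26.0-fold lower with an adjusted p of 0.00354. Col1a2 read 13.25 and 12.65 in Sp1+/+ and 9.64 and 9.62 in Sp1-/- progenitors (-3.32 ± 0.468, 9.99-fold lower, adjusted p = 0.000857). Col3a1 read 9.53 and 9.08 in Sp1+/+ and 6.84 and 7.0 in Sp1-/- progenitors (-2.38 ± 0.383, adjusted p = 0.00192). In these 3 genes the Sp1-/- progenitor arrays were also the lowest or among the lowest of all groups, while in HE1 and HE2 the genotypes overlapped, except for Col3a1 in HE2. The Sp1+/+ replicates of Col1a1 lay far apart in HE1 (12.18 and 9.97) and HE2 (11.80 and 9.12), and this spread enters its SE. Col5a1, higher in Sp1-/- HE1 and HE2, read 10.95 and 10.86 in Sp1+/+ and 10.81 and 11.12 in Sp1-/- progenitors and was not called (0.06). Col5a2, which pairs with it in type V collagen, was well above background on both Sp1+/+ arrays and on 0 of 2 Sp1-/- arrays, at least 1.48-fold lower and not called. Col6a1 (-0.76) and Col6a2 (-0.23), chains of the beaded-filament collagen VI, were not called.

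Among the basement membrane genes, those for type IV collagen, laminins and nidogens were lower in Sp1-/- progenitors. Col4a1 read 12.59 and 11.63 in Sp1+/+ and 8.66 and 9.21 in Sp1-/- progenitors (-3.18 ± 0.391, 9.04-fold lower, adjusted p = 0.000359). Its neighbor Col4a2 read 12.56 and 11.70 in Sp1+/+ and 9.43 and 9.95 in Sp1-/- progenitors (-2.44 ± 0.346, 5.43-fold lower, adjusted p = 0.000886). The genotypes were apart in both, and their Sp1+/+ replicates differed in the same direction. Col4a5, a type IV chain of more restricted basement membranes, read 9.89 and 9.48 against 8.28 and 8.45 (-1.32), and Col18a1 read 14.58 and 14.28 against 13.08 and 12.99 (-1.40).

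The laminin chains were lower to unequal degrees. A laminin is a trimer of an α, a β and a γ chain. Lamb1, the β1 chain, read 12.43 and 12.12 in Sp1+/+ and 9.14 and 9.39 in Sp1-/- progenitors (-3.01 ± 0.212, 8.06-fold lower, adjusted p = 1.06e-05). Lama1 read 10.83 and 10.19 in Sp1+/+ and 7.34 and 7.74 in Sp1-/- progenitors (-2.97 ± 0.350, 7.84-fold lower, adjusted p = 0.000271), and so was called lower here and higher in HE1. Lama4 read 9.5 and 8.60 against 7.57 and 7.63 (-1.45), Lama5 read 11.81 and 11.70 against 10.70 and 10.72 (-1.04), and Lamb2 read 10.32 and 9.82 against 8.38 and 8.82 (-1.47). All 5 had an adjusted p of 0.0114 or less and genotypes that did not overlap, but the calls for Lama4 and Lama5 were lost without replicate 1 of the Sp1+/+ progenitor arrays. Lamc1, the γ1 chain shared by most laminins, read 12.38 and 12.45 against 11.46 and 11.62, which was lower by less than 2-fold (-0.88, adjusted p = 0.00540).

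Of the genes that link the networks, Nid1 read 11.98 and 11.85 in Sp1+/+ and 7.98 and 8.36 in Sp1-/- progenitors (-3.75 ± 0.340, 13.4-fold lower, adjusted p = 4.95e-05). The other probes of Nid1, dimmer than this one, gave -0.995 and -1.42. Nid2, the second nidogen, read 10.51 and 10.24 against 8.99 and 9.29 (-1.24, adjusted p = 0.0483), and its call was lost when any of the 4 progenitor arrays was left out. Hspg2, which encodes the heparan sulfate proteoglycan perlecan, read 11.75 and 11.24 against 10.41 and 10.68 and was not called (-0.95).

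**Figure D4:**
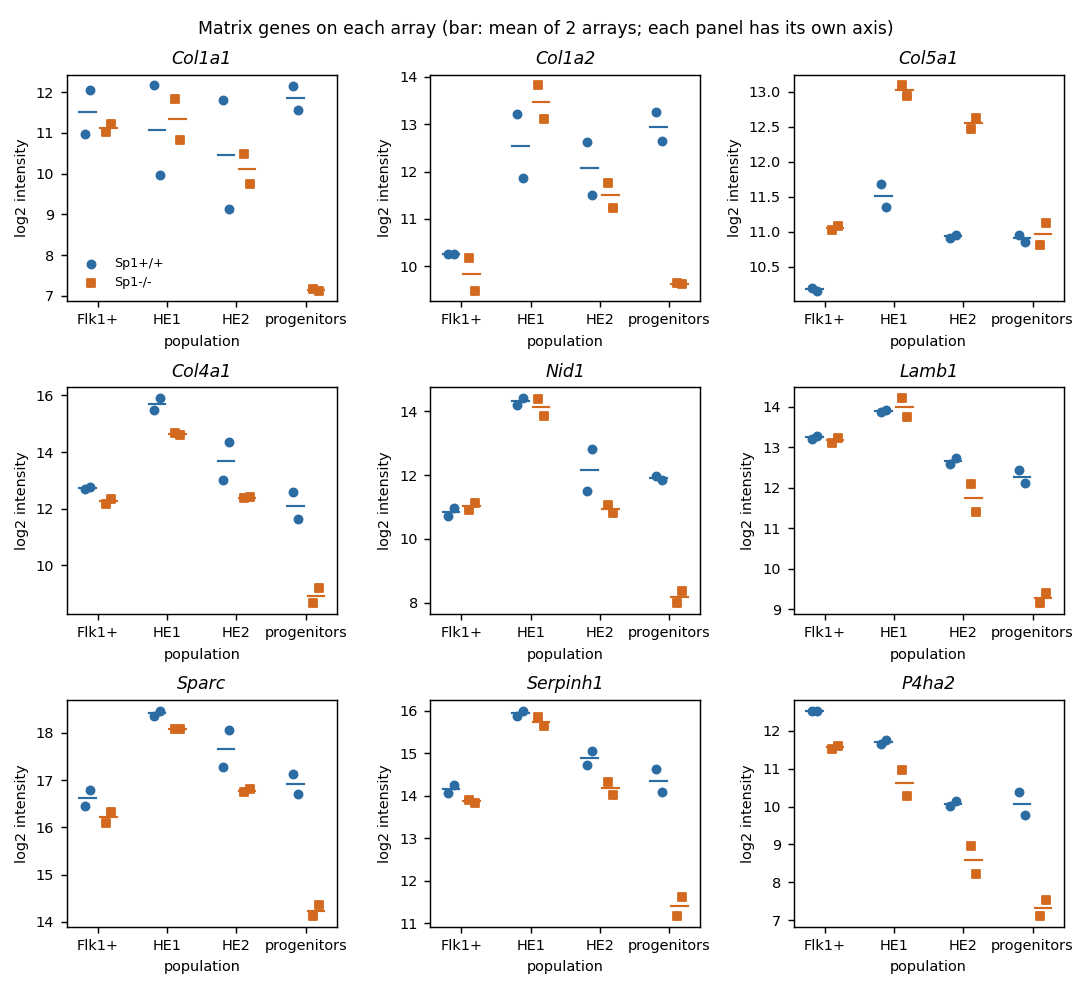
Log2 intensity on each array for 9 matrix genes, by population, with Sp1+/+ arrays as circles, Sp1-/- arrays as squares and a bar at the mean of 2 arrays. In progenitors the 2 Sp1-/- arrays lie below both Sp1+/+ arrays in 8 of the 9 genes, and in Col5a1 they overlap.

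In the fibronectin, elastic fiber, proteoglycan and matricellular class, Sparc had the smallest adjusted p in progenitors. It encodes a collagen-binding matricellular glycoprotein and read 17.13 and 16.71 in Sp1+/+ and 14.12 and 14.35 in Sp1-/- progenitors (-2.69 ± 0.226, 6.43-fold lower, adjusted p = 2.95e-05), and a second probe gave -2.39. Fbn1 read 9.78 and 8.16 in Sp1+/+ and 6.18 and 6.58 in Sp1-/- progenitors (-2.59 ± 0.478, adjusted p = 0.00443), with 1 of 2 Sp1-/- arrays well above background. Its difference was -1.78 without replicate 1 and -3.40 without replicate 2 of the Sp1+/+ progenitor arrays. The genotypes did not overlap in either gene. Postn read 10.66 and 9.45 against 7.41 and 7.55 (-2.58 ± 0.80, adjusted p = 0.0589), and its call was lost without replicate 1 of the Sp1+/+ arrays or without either Sp1-/- array. Fn1 read 15.22 and 14.52 in Sp1+/+ and 13.06 and 14.12 in Sp1-/- progenitors (-1.28 ± 0.387, adjusted p = 0.0526), and its call was lost without replicate 1 of either genotype. Those are the 2 genes that missed the adjusted threshold.

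Thbs1 read 12.54 and 12.61 against 11.01 and 11.21 (-1.47, adjusted p = 0.00524). Among the fibulins, Fbln1 read 8.24 and 7.89 against 6.66 and 6.60 (-1.44), and Fbln2 read 9.54 and 9.65 against 7.98 and 8.30 (-1.46). The call for Fbln1 was lost when its probes were averaged, since its other probe gave -0.535. The other 7 genes of the class were not called in progenitors. They were Tnc (tenascin C), which was well above background on 0 of 2 Sp1-/- arrays and at least 1.48-fold lower, Fbln5 and Lum, which were so on 1 of 2 Sp1+/+ and 0 of 2 Sp1-/- arrays and were at least 1.32-fold and at least 1.18-fold lower, Emilin1 (-0.27), Thbs2 (-0.25), Eln, the elastin gene (0.07), and Bgn. Bgn read 10.32 and 10.25 in Sp1+/+ and 11.43 and 11.62 in Sp1-/- progenitors. This difference of 1.24 was not called and was the only one above 1 in this population. The genotypes did not overlap here, but the spread of Bgn between the Sp1-/- HE1 arrays (10.32 and 12.59) enters its SE.

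In the crosslinking and collagen processing class, 5 of 7 genes were lower in Sp1-/- progenitors. Serpinh1, the gene for the collagen chaperone HSP47, read 14.64 and 14.08 in Sp1+/+ and 11.16 and 11.62 in Sp1-/- progenitors (-2.97 ± 0.205, 7.84-fold lower, adjusted p = 9.18e-06), the smallest adjusted p of the 41 genes in this population. P4ha2 read 10.38 and 9.78 in Sp1+/+ and 7.10 and 7.54 in Sp1-/- progenitors (-2.76 ± 0.278, 6.77-fold lower, adjusted p = 9.79e-05). P4ha2 was thus called lower in HE1, HE2 and progenitors, and in Flk1+ cells it read 12.54 and 12.52 against 11.53 and 11.61, a difference of -0.96 just short of 2-fold (adjusted p = 0.0668). Among the 41 genes 0 were called lower in all 4 populations, where 0.229% of all genes were. P4ha1, the gene for the alternative catalytic subunit, read 8.56 and 8.28 against 8.00 and 7.99 in progenitors and was not called (-0.42). Plod2, which hydroxylates collagen lysines, read 9.66 and 9.2 against 8.23 and 8.30 (-1.17, adjusted p = 0.000570), and its call was lost without replicate 1 of the Sp1+/+ arrays.

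The lysyl oxidases start crosslinking of collagen and elastin. Loxl1 read 10.00 and 9.39 in Sp1+/+ and 6.82 and 6.97 in Sp1-/- progenitors (-2.80 ± 0.629, adjusted p = 0.0132), a call that was lost without replicate 1 of the Sp1+/+ arrays. Loxl2 read 9.90 and 9.43 against 7.19 and 7.17 (-2.49 ± 0.259, adjusted p = 0.000120), but its probes disagreed, for a second probe of nearly the same mean intensity gave -0.385 and the remaining one -2.16. Where the values were normalized in another way the second probe was the brightest, and Loxl2 was then not called. Lox itself was well above background on 2 of 16 arrays, and its values of 5.92 to 6.33 give no level to compare.

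Counted over the 4 populations, 28 of 41 matrix genes were called in at least 1 comparison of the genotypes, against 6.73% of all genes. Of the 28, 25 were only lower, Col5a1 and Lum only higher, and Lama1 both. The 13 called in none were Col5a2, Col6a1, Col6a2, Lamc1, Hspg2, Fbln5, Eln, Emilin1, Bgn, Tnc, Thbs2, Lox and P4ha1. Of these, Fbln5 was well above background on 4 of 16 arrays, Thbs2 on 12 and Lox on 2, and their values stayed between 5.92 and 6.69 on all arrays.

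Whether the effect of the mutation differed between populations was tested as a difference of differences. From Flk1+ cells to progenitors it became lower by the called amount in 22 of 41 matrix genes, against 2.37% of all genes, and in 18 at an adjusted p of 0.05, against 1.87%. The largest with an adjusted p below 0.05 were Nid1 (-3.93 ± 0.481, adjusted p = 0.00138), Lama1 (-3.66 ± 0.495, adjusted p = 0.00231) and Lamb1 (-2.93 ± 0.299, adjusted p = 0.000781). Serpinh1 had -2.68 ± 0.290 (adjusted p = 0.000907). Col1a1 had the largest value (-4.30) with an adjusted p of 0.0648. From HE2 to progenitors it became lower in 15, against 0.913% of all genes. Serpinh1 (-2.25, adjusted p = 0.00909) and Col5a1 (-1.55, adjusted p = 0.00712) were among the 8 of these that passed an adjusted p of 0.05. From Flk1+ cells to HE1, 2 genes became lower (0.891% of all genes) and 1 higher (0.708%), and from HE1 to HE2, 3 became lower (0.31%). In these 2 steps 0 of the 41 passed an adjusted p of 0.05 in limma, where an unadjusted p under 0.05 gave 5 higher and 3 lower in the first and 9 lower in the second. The share of all genes at that looser threshold was not counted.

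Markers of other cell types moved with the matrix genes in progenitors, and their part in the result was not tested. Of 36 markers, 9 were called lower there and 1 higher, against 2.6% and 1.5% of all genes. The means of the 6 cardiac and smooth muscle markers were 11.08 and 11.45 on the Sp1+/+ arrays and 8.86 and 9.06 on the Sp1-/- arrays, and 5 of the 6 were still above background on both Sp1-/- arrays. Acta2 (smooth muscle actin) read 16.81 and 16.24 against 12.85 and 12.77, Tagln was lower by a log2 difference of -3.67 and Cnn1 by -3.96. The endothelial list was lower (10.83 and 11.56 against 10.04 and 10.38), with Cdh5 at -2.40 and Eng at -1.76, while Kdr (0.57) and Pecam1 (-0.19) were not called. The mesenchymal list was lower too (7.17 and 7.37 against 6.55 and 6.59), with Twist1 at -2.14 and Pdgfra above background on 0 of 2 Sp1-/- arrays. Markers of the mesenchymal list above background on both arrays numbered 4 of 6 in Sp1+/+ and 1 of 6 in Sp1-/- progenitors. The pluripotent list read 7.48 on both arrays against 7.34 and 7.40, with its members in both directions. Esrrb (group means of 7.33 against 6.83) and Pou5f1 (6.555 against 6.43) were lower in Sp1-/- progenitors. Nanog (9.025 against 9.215) was higher and Zfp42 (7.01 against 7.015) nearly level. The primitive endoderm list read 7.14 and 8.00 against 6.58 and 6.66. Within the primitive endoderm list, Sox7 (group means of 8.3 against 6.1) and Sox17 (8.08 against 6.03) were lower by the most. Their Sp1+/+ progenitor replicates lay far apart, with 9.61 and 7 for Sox7 and 9.61 and 6.55 for Sox17. The Sp1-/- progenitor arrays read 6 and 6.2 for Sox7 and 6.04 and 6.02 for Sox17, with 0 of 2 well above background. Much of both differences thus rested on replicate 1 of the Sp1+/+ progenitor arrays. Gata6, Dab2 and Foxa2 were lower too. In Sp1+/+ HE1, where the endothelial list was also high, Sox7 and Sox17 had means of 13.08 and 13.01. Afp (7.72 against 8.13) and Amn (6.5 against 6.4) overlapped between the genotypes. Ttr was well above background on 0 of 2 progenitor arrays of each genotype. The hematopoietic list was higher in Sp1-/- progenitors (11.64 and 11.91 against 12.37 and 12.50), with Ptprc (CD45) called at 1.28. The rise was unequal, with group means of 14.245 against 15.635 for Gata1 and 13.685 against 14.52 for Gfi1b. Runx1 (13.285 against 13.665) and Itga2b (11.665 against 11.81) differed less, and Spi1 (9.105 against 9.02) was not higher. The hematopoietic list was also higher in Sp1-/- HE2 (10.55 and 10.71 against 11.44 and 11.79), where the cardiac and smooth muscle list overlapped between the genotypes.

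**Figure D5:**
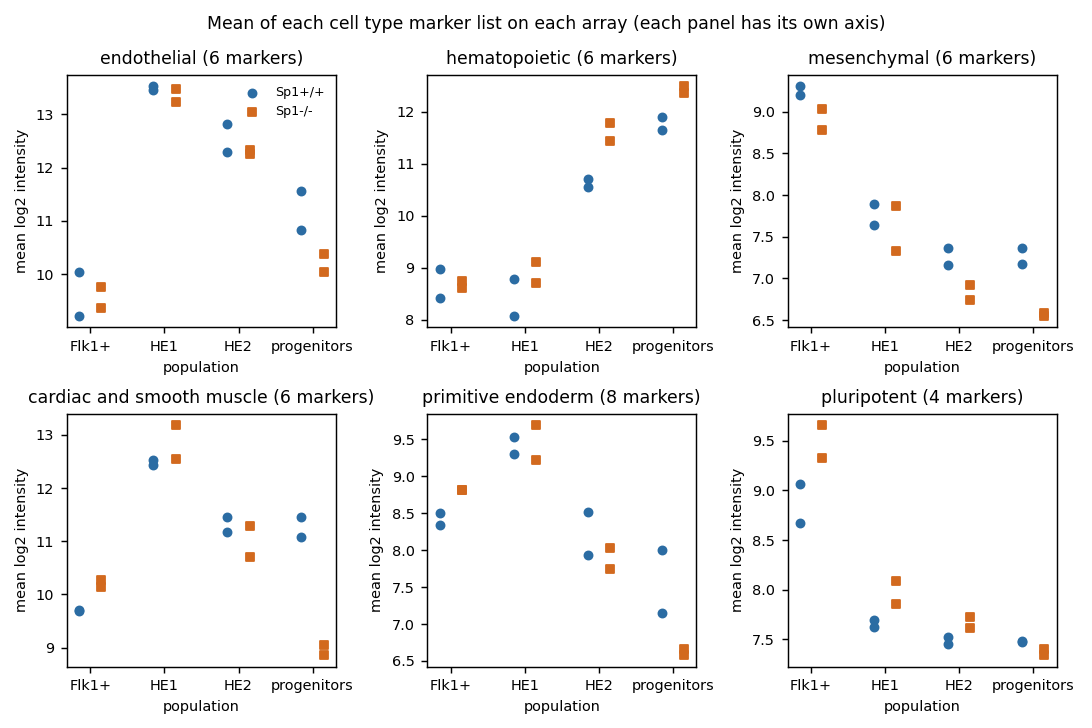
Mean log2 intensity of each marker list on each array, by population, with Sp1+/+ arrays as circles and Sp1-/- arrays as squares. In progenitors the hematopoietic means are higher on the Sp1-/- arrays and the means of the other 5 lists lower. The cardiac and smooth muscle list is lower by the most and the pluripotent list by the least, and members of a list can differ in direction.

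A further list of 83 matrix genes, of which 82 were measured (Prelp was not matched), gave 24 called lower and 3 higher in Sp1-/- progenitors, against the 2.6% and 1.5% of all genes given above. Of the 24, 10 were among the 13 enzymes that cut the matrix and their inhibitors, whose median was -2.01. In other collagens 2 of 18 were lower, in other basement membrane genes 2 of 9, in other elastic fiber, proteoglycan and matricellular genes 5 of 25, and in other crosslinking and processing genes 5 of 17. Among the genes called lower were Ccn2 (-4.30), a matricellular growth factor, and Pcolce (-3.46), which enhances the trimming of procollagen. Ltbp2 (2.77), Tgfbi (1.30) and Agrn (1.27) were higher. Flk1+ cells had 3 of the 82 lower, namely Crtap (-2.06), Timp1 (-1.14) and Pcolce (-1.03), and 2 higher, namely Col14a1 (1.49) and Mfap2 (1.11), against 0.867% and 0.781% of all genes. HE1 had 5 lower, with Timp1 (-1.64), Mmp2 (-1.16) and Mmp15 (-1.15) the largest, and 5 higher, with Mfap2 (2.12), Dcn (1.59) and Lamb3 (1.1) the largest, against 1.13% and 0.974% of all genes. HE2 had 9 lower and 1 higher, and the largest were Timp1 (-1.90), Mmp2 (-1.68) and Pcolce (-1.64), with Emilin2 (1.32) higher, against 1.18% and 0.77% of all genes.

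Crtap and Timp1 were called lower in all 4 populations. Crtap encodes a partner of the enzyme that hydroxylates a proline of collagen, and its differences from Flk1+ cells to progenitors were -2.06, -1.0, -1.30 and -1.92. Timp1 encodes an inhibitor of matrix metalloproteinases, and its differences were -1.14, -1.64, -1.90 and -3.04 in the same order.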

How the data were processed

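RNA of 16 samples was hybridized to one-color Agilent arrays, 2 for each of 8 groups. The authors deposited spot intensity values from the scanner software (Feature Extraction, version 10.7.3.1 in the file headers and 10.7.1.1 in the labels), and a table of normalized log2 values, which was used here. The methods state limma's normexp background correction with an offset of 16 and quantile normalization. An offset of 50 gave the deposited log2 values to within 0.0258, whereas 16 missed them by up to 1.63.

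Control spots were left out, outlier spots, 95 to 182 of them on an array, were treated as missing, and spots of a probe were averaged. Of 37932 target names, 20869 matched a gene by accession and 12 by symbol or synonym, and 17051 kept the target name. The brightest probe stood for a gene, among those at a log2 value of 6 or higher on 1 array or more. All contrasts came from 1 model over the 8 groups, with 8 residual degrees of freedom, fitted with limma 3.58.1 in R 4.3.3 and tested on simulated data. A bound stands for the fold where 0 of 2 arrays of a group were well above background. The number of arrays limits the precision.

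The named genes are the 43 listed ones, with values on every array for those called between the genotypes, and from the further matrix list the 3 called genes with the largest difference each way in a population, and those called in all 4; 1 gene under this rule is not reported here. The members, the lists and the markers were chosen with earlier results of these data known. Replicate numbers were not taken to pair the arrays, since the labels tie them to no shared culture and only 2 pairs stand in a comparison. In the paper HE1, HE2 and progenitors were sorted at day 2 of blast culture, and whether same-numbered arrays shared a culture was not settled. Arrays of replicate 1 lie in row 1 of their slide and those of replicate 2 in row 2. The correlations of same-numbered deviations ran from -0.173 to 0.503 over 12 comparisons, the highest in Sp1+/+ HE2 against HE1. Alternatives were another offset, no background correction, the processed signal scaled to the 75th percentile, other filters and the mean over probes. Further ones were a replicate block, only the arrays compared, an adjusted p of 0.05, Student's t-test and leaving out each array. Promoter sequences and their coordinates are from a RefSeq table of GRCm38.p6.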

Additional observations from a re-analysis of the deposited data

Results flagged for a closer look

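For 43 pairs of a matrix gene and a step between populations, the Sp1-/- effect itself differed between the populations, with the limma test of the difference of differences past the thresholds on p and fold used above. The values are log2 differences, the effect in the later population minus that in the earlier one. From Flk1+ cells to progenitors, the collagen genes were Col1a1 (-4.30), Col1a2 (-2.89), Col3a1 (-2.38) and Col5a2 (-1.01). The basement membrane genes were Nid1 (-3.93), Lama1 (-3.66), Lamb1 (-2.93), Col4a1 (-2.70), Col18a1 (-2.15), Col4a2 (-2.14), Lama5 (-1.62) and Lamb2 (-1.62). In the fibronectin and elastic class they were Sparc (-2.28), Thbs1 (-1.57), Fbln2 (-1.54), Tnc (-1.39) and Fbln1 (-1.26). In the crosslinking class they were Loxl1 (-2.89), Loxl2 (-2.71), Serpinh1 (-2.68), P4ha2 (-1.80) and Plod2 (-1.04). Of these 22 values, 18 passed an adjusted p of 0.05.

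From HE2 to progenitors, 15 genes were flagged, 8 of them at an adjusted p of 0.05. They were Col1a1 (-4.35), Col1a2 (-2.75), Col5a1 (-1.55), Lama1 (-3.06), Nid1 (-2.52), Lamb1 (-2.09), Col4a1 (-1.90), Col4a5 (-1.37), Lamb2 (-1.27), Sparc (-1.80), Fbln2 (-1.38), Loxl1 (-2.91), Serpinh1 (-2.25), Loxl2 (-1.97) and P4ha2 (-1.27). These share the progenitor arrays with the first set of values. From Flk1+ cells to HE1 the genes were Lum (1.61), Col18a1 (-1.23) and P4ha1 (-1.08), and from HE1 to HE2 they were Lum (-1.66), Plod2 (-1.23) and Lamb1 (-1.02), with 0 of these 6 at an adjusted p of 0.05. The sizes for Lum, Tnc and Col5a2 are inexact, since 0 of 2 arrays were well above background for Lum in Flk1+ cells of both genotypes, for Tnc in Sp1+/+ Flk1+ cells and Sp1-/- progenitors, and for Col5a2 in Sp1-/- progenitors. Groups of 2 arrays are too small to look for a single array that stands apart.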

How the results depend on the processing

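The counts of called matrix genes were followed in 11 comparisons, and 94 of 122 values under another setting lay within 1.5 times the reported count. In Flk1+ cells the count of 1 became 2 with the offset of 16, 2 without background correction and 3 with the processed signal. In HE2 the count of 4 became 7 with the processed signal, 2 at an adjusted p of 0.05 and 2 with only the arrays compared. In Sp1+/+ progenitors against HE2 the count of 8 became 3 at an adjusted p of 0.05 and 3 with only the arrays compared. Student's t-test called 0, 0, 1 and 10 between the genotypes, in the order of the populations. Along the course it called 10, 2 and 1 in Sp1+/+ and 11, 6 and 12 in Sp1-/- cells. After Benjamini-Hochberg adjustment it called 0 in each of these 10 comparisons, where an unadjusted p under 0.05 with no fold threshold gave 1 higher and 26 lower in progenitors. The t-test was not run on the difference of differences. Leaving out 1 array at a time gave 0 to 1, 3 to 5, 2 to 8 and 19 to 25 between the genotypes, in the same order. Along the course it gave 20 to 23, 12 to 17 and 2 to 10 in Sp1+/+ and 23 to 26, 21 to 26 and 19 to 25 in Sp1-/- cells, and 17 to 22 for the change of the effect from Flk1+ cells to progenitors. With a replicate block the genotype counts were 1, 4, 5 and 26, those along the course 23, 15 and 8 in Sp1+/+ and 24, 26 and 26 in Sp1-/- cells, and the last count 23. Deviations of same-numbered arrays correlated at -0.112 to -0.173 in 3 comparisons, and with the numbers crossed, a choice made after seeing the data, their counts were 4 in HE2, 26 in progenitors and 8 in Sp1+/+ progenitors against HE2.

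Of 35 values of single genes called between the genotypes, 20 kept their call under every alternative other than the t-test, 17 of them among the 26 in progenitors. The sign reversed in 0 of 525 values, but alternatives that changed only the test or its threshold left the log2 difference as it was and could not reverse it. The 9 progenitor calls lost under at least 1 alternative were those of Fbln1, Fn1, Lama4, Lama5, Loxl1, Loxl2 (-0.397 with the offset of 16), Nid2, Plod2 and Postn. Without replicate 1 of the Sp1+/+ progenitor arrays, Fn1, Lama4, Lama5, Loxl1, Nid2, Plod2 and Postn were not called. The processed signal moved the median of all genes in HE1 to 0.187, and the share of called genes that were lower moved in the order of the populations, from 52.6% to 43.8%, from 53.8% to 31.9%, from 60.6% to 42.0% and from 63.4% to 55.0%. It called 29 matrix genes in progenitors, 29 lower. Low signal limits Lox, Fbln5, Thbs2 and Lum, and the offset understates the folds of dim genes, such as Fbn1 in progenitors, which had -2.59 here and -4.42 to -1.78 under its alternatives, the last without replicate 1 of the Sp1+/+ progenitor arrays.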

Other observations

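The replicates of Sp1+/+ HE2 and of HE1 in both genotypes lay apart in a group of matrix genes. Differences of 1 or more on the log2 scale between the 2 arrays of a group were found in 9 of the 41 genes in Sp1+/+ HE2, 6 in Sp1-/- HE1, 5 in Sp1+/+ HE1, 2 in Sp1+/+ progenitors, 1 each in Sp1-/- progenitors and in the Flk1+ cells of each genotype, and 0 in Sp1-/- HE2. Counting gaps of any size, replicate 1 was the higher array in 36 of the 41 genes in Sp1+/+ progenitors. It was higher in 32 in each of Sp1-/- HE1 and HE2, in 10 in Sp1-/- progenitors, and in 15 to 20 in the other groups. In Sp1+/+ HE2, Col1a1 read 11.80 on replicate 1 and 9.12 on replicate 2, Postn 10.06 and 8.09, and Loxl1 9.92 and 7.91, while Col4a1 read 13.00 and 14.34, Nid1 11.50 and 12.83 and Col4a2 13.27 and 14.45. On the same 2 arrays the smooth muscle markers Acta2 (16.57 and 15.09) and Tagln (15.78 and 14.80) were higher on replicate 1, and the endothelial markers Cdh5 (13.27 and 14.26) and Tek (10.52 and 11.45) were higher on replicate 2. The cause of these gaps was not tested.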
